A study of Mus musculus with 6 samples.

Results

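The Id genes *Id1*, *Id2*, *Id3* and *Id4* encode 4 related helix-loop-helix proteins, and they were taken by name from the 53657 gene names of the count tables. All 4 passed the filter on low counts. They were read in cells sorted for undifferentiated spermatogonia (Aundiff), the pool of male germ cells that holds the spermatogonial stem cells. The cells came from 3 WT and 3 MUT adult mice, with 1 sample per mouse. Both groups carried *Gfra1-creERT2*, a tamoxifen-activated Cre recombinase driven by the *Gfra1* promoter, together with a tdTomato reporter, and both received 2 courses of tamoxifen of 4 days each. MUT mice also carried the flox-and-replace allele *FR-Hras*, which on recombination turns 1 wild-type copy of *Hras*, a gene of the RAS-MAPK pathway, into the hyperactive *Hras* G12V under its own promoter. WT mice were littermates without that allele, on the same mixed genetic background. Cells positive for tdTomato and bright for the surface protein MCAM were sorted 3 months after induction. Recombination is mosaic in this model, so a MUT sample can hold cells in which *Hras* was not recombined. From the share of mutated reads, the paper infers that most of the sorted MUT cells carried *Hras* G12V. The RNA of a sample is a mixture in which fewer cells of a type and less RNA per cell cannot be told apart.

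Id proteins hold a helix-loop-helix domain without the basic stretch that binds DNA. They pair with the E proteins (TCF3, TCF4 and TCF12) and so keep these from forming DNA-binding dimers with tissue-specific basic helix-loop-helix (bHLH) factors. Bone morphogenetic proteins (BMPs) are well-known inducers of Id genes through SMAD1, SMAD5 and SMAD9. In the testis, *Id4* is a widely used marker of spermatogonial stem cells.

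In GRCm38, *Id1* occupies chr2:152736251-152737410 (plus strand), *Id2* chr12:25093799-25097140 (minus strand), *Id3* chr4:136143497-136145755 (plus strand) and *Id4* chr13:48261228-48266026 (plus strand). Their exons as counted sum to 1160, 2438, 1791 and 3849 bases. The members are alike in their coding sequence, and the stretch where they resemble each other most is shown because reads from it are the likeliest to be confused between members. It is the window of 60 coding bases with the most positions shared by all 4, with capitals at the 42 positions where all 4 carry the same base. In each gene it lies in exon 1 of the coding transcript that GENCODE numbers first, and it codes for part of the helix-loop-helix domain. Written 5′ to 3′ on the coding strand, the windows are at chr2:152736587-152736646, chr12:25095774-25095833, chr4:136144071-136144130 and chr13:48261762-48261821.
Id1: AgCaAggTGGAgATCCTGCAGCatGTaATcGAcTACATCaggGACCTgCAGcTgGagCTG
Id2: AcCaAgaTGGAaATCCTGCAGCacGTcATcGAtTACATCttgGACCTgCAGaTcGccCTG
Id3: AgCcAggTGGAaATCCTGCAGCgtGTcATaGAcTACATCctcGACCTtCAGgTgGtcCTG
Id4: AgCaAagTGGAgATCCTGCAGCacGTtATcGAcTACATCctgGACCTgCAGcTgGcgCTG

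Within this window *Id1* and *Id4* were the closest pair, with 54 of 60 bases in common, and *Id2* and *Id3* the most distant, with 47. The longest run of identical bases between the transcripts of any pair was 19 bases (*Id2* and *Id3*), and the shortest of these runs was 11 bases (*Id1* and *Id2*). *Id4* shares 171 of its exon bases (4.44%), among them its whole exon 2, with the genes *RP23-347J22.4* and *RP23-344L21.1* on the opposite strand. Fragments that overlapped several genes were left out of the counting and strand was disregarded, so fragments over these bases were not counted for *Id4*. Both antisense genes had between 2 and 5 counts in every sample, and the other members overlapped no other gene.

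For *Id4*, the 250 bases before the start of its RefSeq transcript (GRCm38, plus strand, chr13:48260866-48261115) are shown because they hold 1 match to GGCGCC, a sequence bound by BMP-activated SMADs, given in capitals.
Id4 upstream: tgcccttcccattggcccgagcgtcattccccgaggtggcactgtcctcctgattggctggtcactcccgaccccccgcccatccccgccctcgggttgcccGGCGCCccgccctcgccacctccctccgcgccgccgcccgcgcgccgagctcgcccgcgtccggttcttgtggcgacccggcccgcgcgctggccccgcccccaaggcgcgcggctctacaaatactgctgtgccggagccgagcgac
The motif reads the same on both strands. It was found in 12.0% of 27025 promoters in windows of 300 bases (250 before to 50 after the start), among them those of *Id2* and *Id4* with 1 match each, while that of *Id3* had 0. A promoter of *Id1* is not analysed here. The E box CANNTG, the site of E protein dimers, also reads the same on both strands, and the letters of the motifs can share at most an outer base. It had 1 match in the *Id2* window and 0 in those of *Id3* and *Id4*, against 72.1% of promoters with at least 1. A match describes the letters of the window only.

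Each library held between 22729292 and 23550433 counts on genes. *Hras* had between 1300 and 1600 counts in every sample with the groups overlapping, and counts of the whole gene do not tell its alleles apart. All 11 genes listed for undifferentiated spermatogonia, among them *Gfra1*, *Ret*, *Zbtb16* and *Nanos2*, were detected in every sample. The rest were *Sall4*, *Nanos3*, *Etv5*, *Lin28a*, *Sohlh1*, *Ddx4* and *Dazl*. Their sums ran from 3020 to 3580 CPM (counts scaled to library size and normalized by the TMM method). The largest parts came from *Dazl* (837 to 959 CPM) and *Ddx4* (481 to 527 CPM). Both are general germ cell genes, so the sum does not measure undifferentiated spermatogonia alone. MCAM is also found on somatic cells of the testis, which the tdTomato gate is meant to remove because the *Gfra1* promoter that drives Cre is described as inactive in them. Even so, markers of other cells were detected, with no marker of any list at 0 in every sample. The 6 macrophage markers summed to between 503 and 731 CPM in WT and between 420 and 559 CPM in MUT, and the 6 endothelial markers to between 46.2 and 61.0 CPM in WT and between 45.6 and 56.0 CPM in MUT. The 6 Leydig cell markers reached 67.3 CPM in MUT replicate 3, against 12.9 to 21.1 CPM elsewhere.

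All 4 Id genes were detected at low to moderate levels in the samples sorted for Aundiff. Markers of other cells were detected too, and the part of each cell type in these levels was not tested. Levels between genes are compared per length, as TPM (counts per base of exon, scaled to the same sum in every sample). *Id3* had 35.0 ± 6.73 TPM (SD, n = 6), *Id4* 30.2 ± 4.07 TPM (SD, n = 6), *Id2* 17.3 ± 5.52 TPM (SD, n = 6) and *Id1* 12.4 ± 1.62 TPM (SD, n = 6). The median over the 19656 genes tested was 14.6 TPM, and *Id3* and *Id4* lay above 68.0% and 64.9% of these genes while *Id1* lay above 46.8%. *Id4* was above *Id2* in 6 of 6 samples, *Id3* above *Id4* in 5 of 6 and *Id2* above *Id1* in 5 of 6. None of the 3 differences between neighbours passed 0.05 after adjustment (exact two-sided sign-flip permutation test over the 6 samples, p = 0.0312 for *Id4* and *Id2*, the smallest possible, and 0.0625 for both others; Benjamini-Hochberg adjusted p = 0.0625 for each). The order depended on the length used. With the length of the first-numbered coding transcript in place of the summed exons, *Id2* stood at 33.2 ± 10.6 TPM (SD, n = 6), above *Id4* in 3 of 6 samples (exact sign-flip permutation test, p = 0.688), and *Id3* was highest at 49.0 ± 9.43 TPM (SD, n = 6). On that scale *Id3* was above *Id2* and *Id4* above *Id1* in 6 of 6 samples each, and both differences passed (exact sign-flip permutation test, adjusted p = 0.0468 for each).

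As shares of the summed TPM of the 4 genes, *Id3* took between 33.0% and 40.1% of the total in the 6 samples, *Id4* between 27.5% and 35.9%, *Id2* between 13.3% and 24.6%, and *Id1* between 11.9% and 15.1%. These shares overlapped between WT and MUT for every member, whereas in counts not divided by length the share of *Id1* ran from 5.66% to 5.85% in WT and from 6.0% to 7.10% in MUT, without overlap. *Id2* had its largest share, 24.6%, in WT replicate 3, where *Id4* had its smallest.

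**Figure D1:**
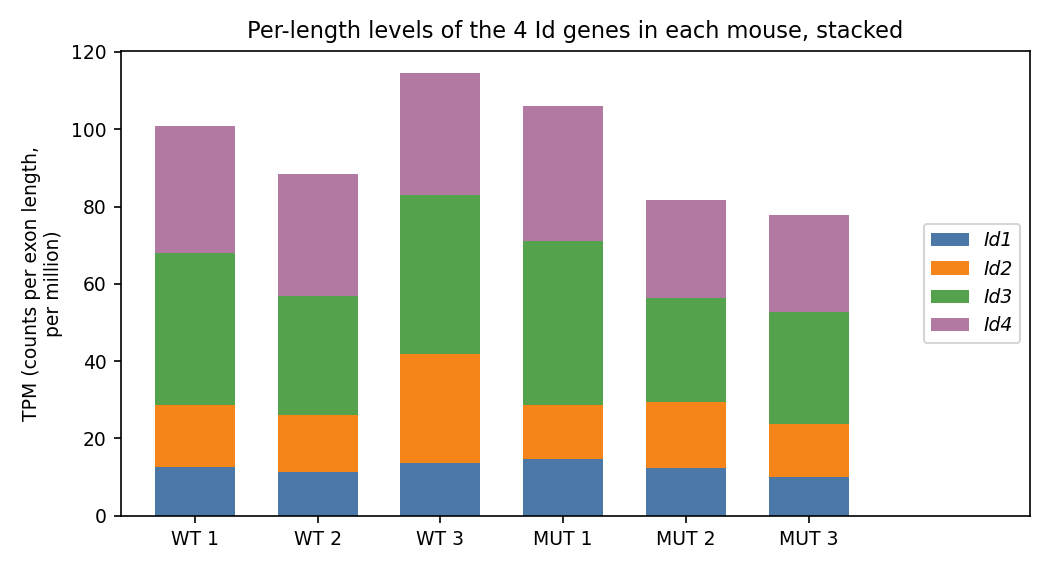
Stacked TPM of *Id1*, *Id2*, *Id3* and *Id4* (y axis, counts per base of exon, scaled per sample) in each of the 6 mice (x axis). The summed level ran from 77.8 TPM in MUT replicate 3 to 115 TPM in WT replicate 3, whose *Id2* segment is the tallest of all samples.

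The comparison of MUT with WT asked whether the Id genes differ once *Hras* G12V is expressed. None of the 4 genes passed an adjusted p of 0.1 in edgeR's quasi-likelihood test, where 2 of all 19656 genes tested did (0.0102%), both lower in MUT and none higher. With the replicate number as a block, edgeR called 13 genes, none of them an Id gene. None of the 4 had an unadjusted p under 0.05 (2.78% of all genes tested, 1.34% higher and 1.44% lower in MUT), and none had WT and MUT samples that did not overlap (7.69% of all genes tested, 4.69% with MUT higher and 3.0% with MUT lower). All 4 log2 fold changes were below 0, with a median of -0.18, beside a median of 0.0066 over all genes tested, of which 48.2% were below 0. The 4 values come from the same 6 samples, and 3 of them turned above 0 when both mice numbered 3 were left out. Between same-numbered mice, MUT minus WT in log2 CPM was below 0 for all 4 members in the pair numbered 3, at -0.49 for *Id1*, -1.1 for *Id2*, -0.54 for *Id3* and -0.38 for *Id4*. In the pair numbered 1 it was 0.24, -0.17, 0.15 and 0.10, and in the pair numbered 2 it was 0.12, 0.23, -0.18 and -0.31, so no member moved the same way in all 3 pairs.

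*Id4*, the stem cell marker of the family, stood at 33.6, 32.4 and 33.4 CPM in WT replicates 1 to 3 and at 36.0, 26.1 and 25.6 CPM in MUT replicates 1 to 3, from 598 to 823 counts. The WT mice lay close together, while MUT replicate 1 was the highest of all samples and MUT replicates 2 and 3 were the lowest, so the groups overlapped. The mean was 33.1 ± 0.647 CPM across WT mice (SD, n = 3) and 29.2 ± 5.87 CPM across MUT mice (SD, n = 3). The log2 fold change was -0.18 (standard error 0.133, 95% confidence interval -0.49 to 0.12) and passed neither test (p adjusted by Benjamini-Hochberg = 0.998 in edgeR, and exact two-sided permutation test, p = 0.4, where the smallest possible is 0.1). On a linear scale the interval runs from 0.715 to 1.09 times the WT level. Without MUT replicate 1 the log2 fold change moved to -0.36 (unadjusted p = 0.00525 and adjusted p = 1.0 from edgeR), without MUT replicate 2 to -0.12 and without MUT replicate 3 to -0.092.

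*Id3*, which is often expressed together with *Id1* and is a common BMP target, had 18.5, 14.6 and 20.3 CPM in WT replicates 1 to 3 and 20.5, 12.9 and 13.9 CPM in MUT replicates 1 to 3, from 297 to 480 counts. MUT replicate 1 was again highest, next to WT replicate 3, and the other MUT mice were lowest, a little below WT replicate 2. Means were 17.8 ± 2.90 CPM across WT mice (SD, n = 3) and 15.7 ± 4.11 CPM across MUT mice (SD, n = 3), with a log2 fold change of -0.18 (standard error 0.197, 95% confidence interval -0.63 to 0.27). The difference passed neither test (exact two-sided permutation test, p = 0.5; adjusted p = 0.998 from edgeR). Without MUT replicate 1 it was -0.42, without WT replicate 2 it was -0.31, and without WT replicate 3, MUT replicate 2 or MUT replicate 3 it was -0.072, -0.066 or -0.093.

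*Id1* was the member with the fewest counts, from 72 to 104. Its level was 3.85, 3.50 and 4.35 CPM in WT replicates 1 to 3 and 4.55, 3.82 and 3.08 CPM in MUT replicates 1 to 3. Both the highest and the lowest sample were MUT. The log2 fold change was -0.033 (standard error 0.198, 95% confidence interval -0.49 to 0.42; adjusted p = 0.998 from edgeR). The means were 3.90 ± 0.427 CPM across WT mice (SD, n = 3) and 3.81 ± 0.734 CPM across MUT mice (SD, n = 3) (exact two-sided permutation test, p = 0.9). Leaving out each mouse in turn gave values on both sides of 0, from -0.18 without MUT replicate 1 to 0.10 without MUT replicate 3.

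*Id2*, known for its role in innate lymphoid, natural killer and dendritic cells, had the largest log2 fold change of the 4 members and the largest spread relative to its mean. It was measured at 10.4, 9.40 and 18.9 CPM in WT replicates 1 to 3 and at 9.27, 11.0 and 8.81 CPM in MUT replicates 1 to 3, from 206 to 448 counts. WT replicate 3 stood apart, at 2.15 times the lowest sample, and the other 5 samples of both groups were intermixed. The mean was 12.9 ± 5.24 CPM across WT mice (SD, n = 3) and 9.70 ± 1.17 CPM across MUT mice (SD, n = 3), and the log2 fold change was -0.41 (standard error 0.258, 95% confidence interval -1.004 to 0.177; adjusted p = 0.998 from edgeR; exact two-sided permutation test, p = 0.4). Without WT replicate 3 it was -0.030 (standard error 0.152 from edgeR), so the difference rested on that mouse.

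WT replicate 3 also had the highest sums of the macrophage markers (731 CPM against 420 to 570 CPM elsewhere), of the 5 B and plasma cell markers (266 CPM against 4.77 to 165 CPM elsewhere), of the 7 Sertoli cell markers (125 CPM against 51.2 to 106 CPM, of which *Clu* alone gave 103 CPM, while *Wt1*, *Sox9* and *Rhox5* were highest in other samples), of the 5 spermatocyte markers (495 CPM against 352 to 430 CPM) and of the 5 spermatid markers (1460 CPM against 593 to 1160 CPM). It had the lowest sum of the genes listed for undifferentiated spermatogonia (3020 CPM against 3190 to 3580 CPM), not all of which are specific to that pool. Of these, *Gfra1*, *Nanos2*, *Nanos3*, *Etv5*, *Sohlh1* and *Dazl* were lowest in other samples. All 6 macrophage markers had at least 3 counts in every sample, and 5 of them (*Csf1r*, *Adgre1*, *Cd68*, *Mrc1* and *C1qa*) were highest in WT replicate 3 while *Cd163* was highest in MUT replicate 3, at 26.5 CPM against 17.8 CPM. The tdTomato gate is meant to remove the somatic and immune cells among these, yet their markers were detected. The part of any of these cells in the level of *Id2* was not tested.

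**Figure D2:**
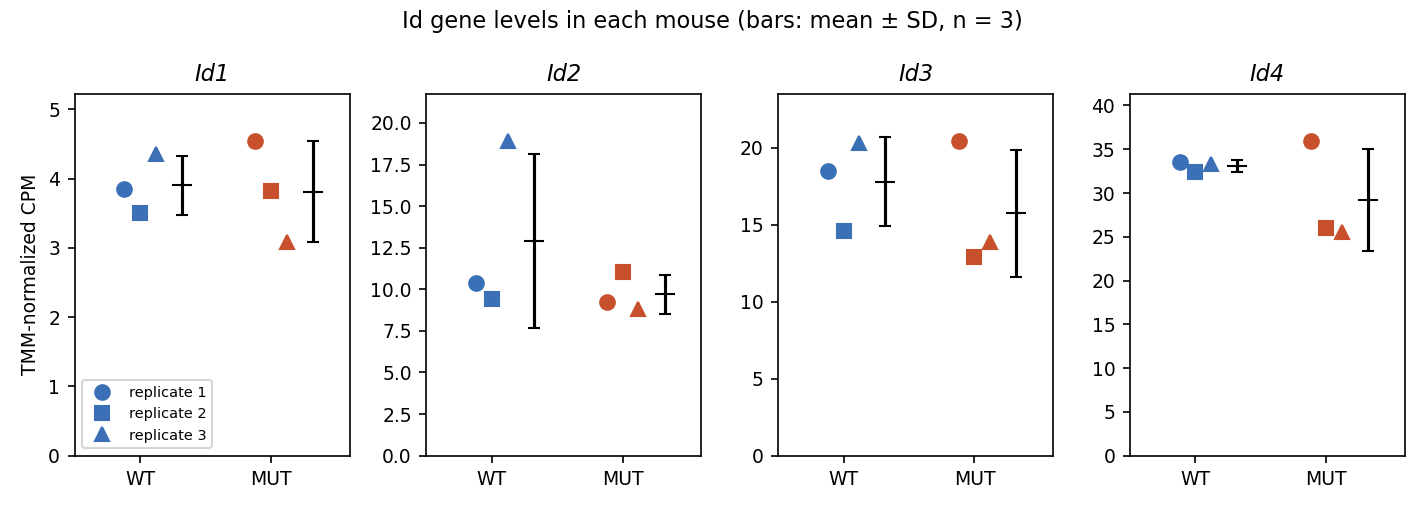
TMM-normalized CPM (y axis) of each Id gene in WT (blue) and MUT (red) mice, with 1 symbol per replicate number and the mean ± SD (n = 3) in black. WT replicate 3 stands apart for *Id2* at 18.9 CPM, and MUT replicate 1 is the highest sample for *Id1*, *Id3* and *Id4*.

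**Figure D3:**
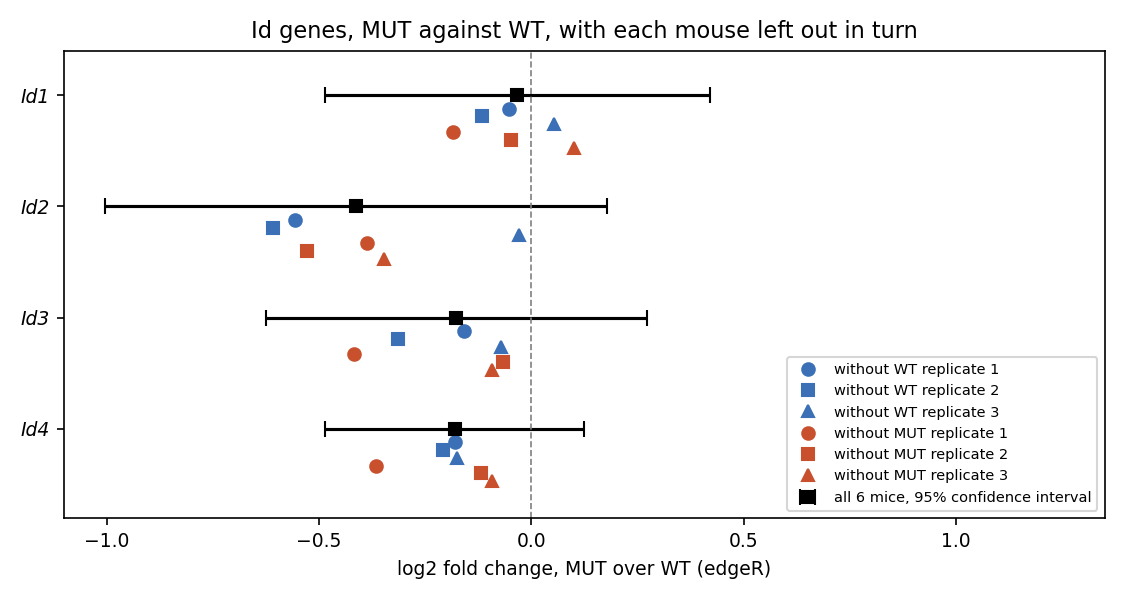
Log2 fold change of MUT over WT (x axis) for each Id gene (y axis), with black squares and bars for the fit on all 6 mice and its 95% confidence interval and coloured symbols for the fits without 1 mouse. All 4 intervals span 0, *Id2* moves to -0.030 without WT replicate 3, and *Id4* moves to -0.36 without MUT replicate 1.

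**Figure D4:**
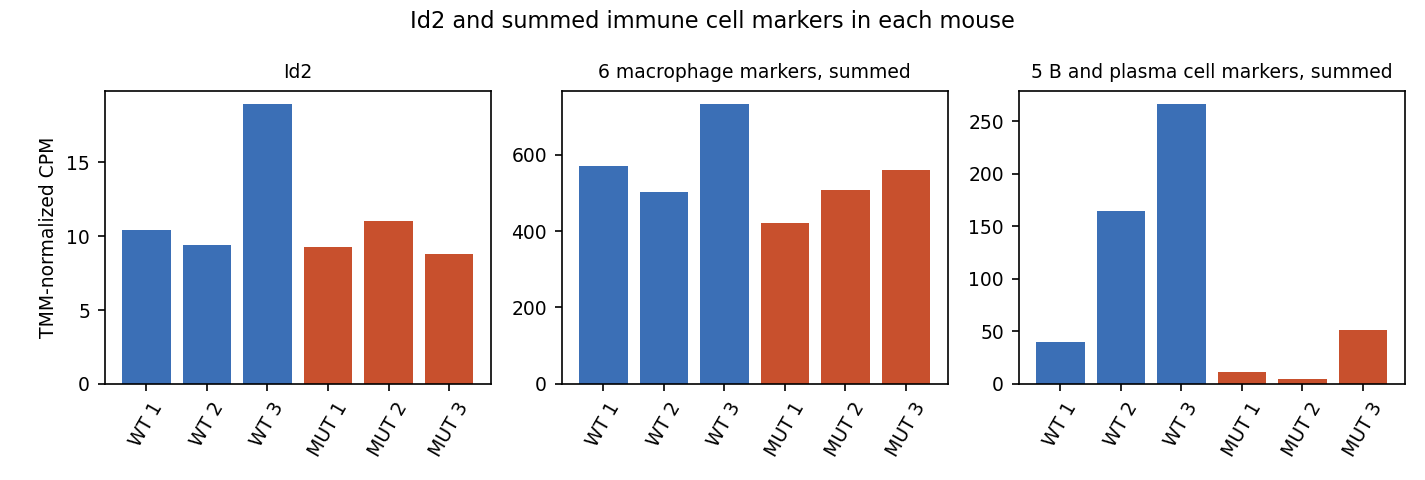
CPM (y axis) of *Id2*, of 6 summed macrophage markers and of 5 summed B and plasma cell markers in each mouse (x axis; WT blue, MUT red). WT replicate 3 is the highest bar in all 3 panels, at 18.9, 731 and 266 CPM.

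Over the 6 samples the log2 CPM of *Id1*, *Id3* and *Id4* were positively correlated, with none of the 6 pairs of members past 0.05 after adjustment. The closest pair was *Id3* and *Id4* (Pearson's r = 0.87, exact permutation p = 0.0153; Spearman's rho = 0.89, exact permutation p = 0.0333), with adjusted p = 0.0918 and 0.0999 over the 6 pairs from the exact permutation test. Within genotypes, after subtracting the group means, r was 0.86, and without the 2 samples farthest from the median of *Id3* it was 0.73. *Id1* and *Id3* had r = 0.78 (exact permutation p = 0.0736, adjusted 0.221) and rho = 0.83 (exact permutation p = 0.0583, adjusted 0.117), with r = 0.80 within genotypes and 0.70 without the 2 farthest samples. *Id1* and *Id4* had r = 0.73 (exact permutation p = 0.113, adjusted 0.226) and rho = 0.89 (exact permutation p = 0.0333, adjusted 0.0999), which fell to r = 0.20 without the 2 farthest samples, so that this relation rested on MUT replicates 1 and 3. *Id2* had r = 0.22 with *Id4* (exact permutation p = 0.744), and leaving out the 2 farthest samples, WT replicate 3 and MUT replicate 3, turned it to -0.80. Its r was 0.44 with *Id3* (exact permutation p = 0.454) and 0.51 with *Id1* (exact permutation p = 0.339). Without WT replicate 3 and MUT replicate 3, the farthest samples for *Id2*, the value with *Id3* was -0.54. The value with *Id1* was 0.95 without MUT replicates 1 and 3, the farthest samples for *Id1*. That value still includes WT replicate 3, the sample that stood apart for *Id2*.

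The genes whose log2 CPM was most like that of a member were sought among 10582 or 10583 genes of at least 10 CPM on average, over the same 6 samples. Over so few samples r exceeded 0.9 for 128 genes with *Id1*, 144 with *Id2*, 66 with *Id3* and 72 with *Id4*. The 3 nearest were *Sqstm1*, *Mir17hg* and *Rabggtb* for *Id1* (r from 0.98 to 0.99), *Tmem30a*, *Lipa* and *Fam104a* for *Id2* (0.99), *Tdp2*, *Gmfb* and *Psme2* for *Id3* (0.99), and *Zfp330*, *Paxbp1* and *Crnkl1* for *Id4* (0.98 to 0.99). *Tmem30a*, *Lipa* and *Fam104a* were each highest in WT replicate 3, as *Id2* was, which follows from how they were picked. They had 108, 21.6 and 55.6 CPM there, against at most 88.6, 17.0 and 49.5 CPM in the other samples.

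The partners and regulators of the family were read from lists of 111 genes, of which 86 were tested. No gene of these lists passed an adjusted p of 0.1 in edgeR, 1 (1.16%), *Bmp4*, had an unadjusted p under 0.05, while 10 had groups that did not overlap, 8 with MUT higher and 2 with MUT lower (11.6% in all, beside 7.69% of all genes tested). Their median log2 fold change was -0.0011, with 42 above and 44 below 0.

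Per summed exon length, the E proteins, the direct targets of Id proteins, ranged widely in level. *Tcf3* at 336 TPM and *Tcf12* at 46.5 TPM lay above every Id gene and *Tcf4* at 5.47 TPM below every Id gene. With the length of the first-numbered coding transcript *Id3* stood at 49.0 TPM, a scale not computed for the E protein genes. *Tcf3* had 362 ± 37.9 CPM across WT mice (SD, n = 3) and 363 ± 10.9 CPM across MUT mice (SD, n = 3), with a log2 fold change of 0.0030 (standard error 0.0903). *Tcf12* and *Tcf4* had log2 fold changes of 0.036 and -0.045. The summed TPM of the 4 Id genes amounted to 0.238, 0.220 and 0.344 times that of the 3 E protein genes in WT replicates 1 to 3 and to 0.265, 0.213 and 0.203 times in MUT replicates 1 to 3. These ratios also rest on summed exon length. They overlapped between the groups, with the highest in WT replicate 3.

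Of 36 bHLH partners of E proteins, 20 were tested, with a median log2 fold change of -0.096. Per length the most abundant was *Sohlh1* at 482 TPM, a germ cell factor that promotes spermatogonial differentiation, with 160 ± 9.21 CPM across WT mice (SD, n = 3) and 172 ± 14.3 CPM across MUT mice (SD, n = 3) (log2 fold change 0.10, standard error 0.0822). The list of Hes and Hey repressors, which hold a related helix-loop-helix domain, also includes repressors of the related DEC family. Among its 9 tested genes the median log2 fold change was 0.083, and *Hes1* was the highest at 67.5 TPM (log2 fold change -0.12, standard error 0.0931).

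On the BMP side, 7 of 14 ligands, all 14 receptors and signalling SMADs and 14 of 15 antagonists and intracellular inhibitors were tested, with median log2 fold changes of 0.081, -0.0011 and 0.056. The most abundant per length were *Bmp7* (51.8 TPM, log2 fold change 0.081), *Smad4*, the common partner of the receptor SMADs (96.8 TPM, log2 fold change -0.028), and *Ski*, a nuclear repressor of SMAD activity (301 TPM, log2 fold change 0.014). The counts of the ligand *Bmp4* were 95, 79 and 62 for WT replicates 1 to 3 and 56, 52 and 46 for MUT replicates 1 to 3, with every MUT sample below every WT sample and a log2 fold change of -0.60 (standard error 0.223; unadjusted p = 0.0255 and adjusted p = 0.998 from edgeR).

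Of 11 partners of Id proteins outside the bHLH family, all tested, the retinoblastoma gene *Rb1* was the highest at 71.6 TPM. It had 125 ± 25.4 CPM across WT mice (SD, n = 3) and 105 ± 3.47 CPM across MUT mice (SD, n = 3). Its log2 fold change was -0.25 (standard error 0.134), with an adjusted p = 0.998 in edgeR, and it passed without both mice numbered 3 (log2 fold change -0.38, adjusted p = 0.0300 from edgeR) in a fit that called 456 genes. *Usp1*, which encodes a deubiquitinase that stabilizes Id proteins, had 113 ± 9.82 CPM across WT mice (SD, n = 3) and 117 ± 6.30 CPM across MUT mice (SD, n = 3), and the 3 genes of that list had a median log2 fold change of 0.046. Among 5 target genes of E proteins, the cell cycle inhibitor locus *Cdkn2a* was the highest at 219 TPM, with 67.9 ± 5.0 CPM across WT mice (SD, n = 3) and 69.8 ± 8.37 CPM across MUT mice (SD, n = 3), and the median log2 fold change of the 5 was -0.036.

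**Figure D5:**
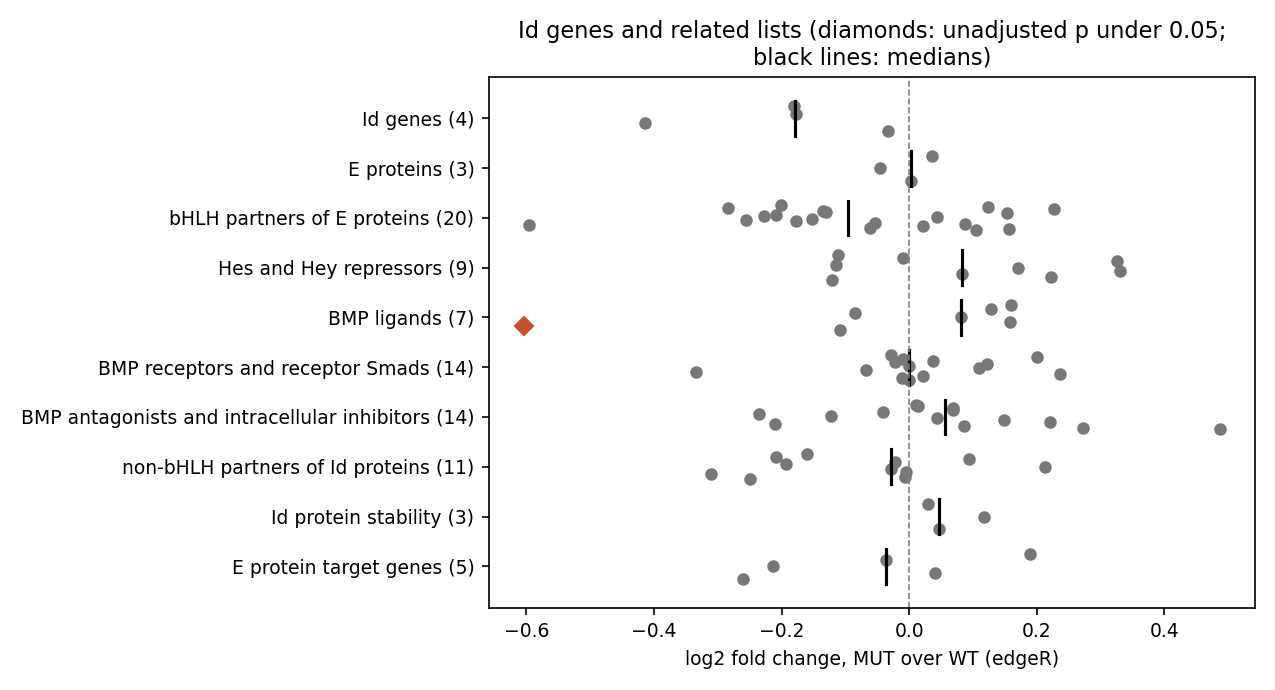
Log2 fold change of MUT over WT (x axis) for the 4 Id genes and for the tested genes of each list (y axis, number of genes in parentheses), with medians as black lines. The diamond is *Bmp4* at -0.60, the 1 gene with an unadjusted p under 0.05.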

How the data were processed

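Counts deposited by the authors are whole fragments per gene, unnormalized, from featureCounts 1.6.2 with GENCODE M17 (GRCm38.p6) plus tdTomato. Strand was disregarded although the kit was stranded, and multi-mapping and ambiguous fragments were left out. FastQC and STAR are named in the submitters' processing notes. Exon lengths are those the authors deposited beside the counts. Groups and replicate numbers come from the sample titles.

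In R 4.3.3, edgeR 4.0.16 (TMM, filterByExpr) tested 19656 genes with genotype alone in the quasi-likelihood fit, calling genes at a Benjamini-Hochberg FDR of 0.1. Standard errors were derived from the fold change and F statistic. DESeq2 1.42.0, limma 3.58.1, other scalings and filters, a replicate block and each sample left out were alternatives. Exact permutation tests and correlations were run on log2 CPM (prior count 2), and 3 against 3 cannot give a p below 0.1. The scripts were tested on simulated counts. Promoters come from RefSeq (GRCm38.p6) and coding windows from GENCODE M21 (GRCm38), and 3 of 4 members had a promoter.

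Same-numbered WT and MUT samples deviated from their group means together (correlations of 0.30, 0.16 and 0.40 over 10583 genes), and the study used littermates. The replicate block and the differences between same-numbered mice take the numbers to pair the mice, while the main fit used genotype alone. The study does not state which mice were littermates of each other. WT replicate 2 with MUT replicate 1 had 0.33, above the pairs numbered 1 and 2, so these correlations do not settle the pairing of those mice. The totals set counting error only. 3 counts correspond to between 0.127 and 0.132 CPM.

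The members, lists and tests were chosen with earlier results of these data known. Genes were named by rule: the members, the 3 nearest genes of each, and in each list the most abundant gene per length and those with an unadjusted p under 0.05 and groups that did not overlap. The values of the genes nearest to *Id2*, and *Tcf4*, *Tcf12* and the cell type markers named singly, were added after they were seen. A gene of 1 list is not reported here and was left out of the counts of that list.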

Additional observations from a re-analysis of the deposited data

How the results depend on the processing

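No setting brought an Id gene past an adjusted p of 0.1, with the lowest adjusted p over all settings at 0.794 for *Id1*, 0.849 for *Id2*, 0.927 for *Id3* and 0.843 for *Id4*. With the replicate number as a block, which assumes that same-numbered mice are pairs, the log2 fold changes of *Id1*, *Id2*, *Id3* and *Id4* were -0.042, -0.36, -0.19 and -0.20 in edgeR. Leaving out each mouse in turn gave -0.18 to 0.10 for *Id1*, -0.61 to -0.030 for *Id2*, -0.42 to -0.066 for *Id3* and -0.36 to -0.092 for *Id4*. Leaving out both mice numbered 3, chosen after seeing the data, gave 0.18 for *Id1*, 0.032 for *Id2* and 0.007 for *Id3*, above 0, and -0.091 for *Id4*.

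The number of genes called, 2 in edgeR, was 9 with DESeq2, 17 with the Cook's distance filter of DESeq2 turned off, 4 with limma voom, 5 without a filter, 0 when every sample had to reach 10 counts (479 at an unadjusted p under 0.05) and 1 at an FDR of 0.05. The replicate block gave 13 in edgeR and 55 in DESeq2, leaving out 1 mouse 0 to 6, and leaving out both mice numbered 3 gave 456, with 1 gene of the related lists (*Rb1*) where the fit on all mice called 0. The cause was not tested. In counts not divided by length the shares of *Id1*, *Id2*, *Id3* and *Id4* were 6.15%, 17.8%, 26.5% and 49.6%, against 13.2%, 18.1%, 36.7% and 32.0% per length.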

Other observations

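Id genes are among the genes that respond quickly to stimulation of cells, so the 12 genes of a list of immediate early and stress genes (*Fos*, *Fosb*, *Jun*, *Junb*, *Egr1*, *Ier2*, *Ier3*, *Atf3*, *Dusp1*, *Zfp36*, *Hspa1a* and *Hspa1b*) were summed in each sample. The sums were 2370, 1990 and 2740 CPM in WT replicates 1 to 3 and 2110, 2110 and 2300 CPM in MUT replicates 1 to 3, so the groups overlapped and WT replicate 3 was highest. The 5 markers of differentiating spermatogonia summed to between 458 and 535 CPM in WT and between 544 and 692 CPM in MUT. Every MUT sum was above every WT sum. Of all single genes tested, 4.69% were separated in this way, a share that does not cover sums. Among the 5, *Stra8*, *Sohlh2* and *Rhox10* did not overlap between the groups, while *Kit* and *Dmrtb1* overlapped. Of the genes listed for undifferentiated spermatogonia, *Lin28a* was also higher in every MUT sample (383 to 430 CPM against 324 to 351 CPM in WT). So was *Nanos3* (29.4 to 34.2 CPM against 25.3 to 29.3 CPM in WT), while the sum of that list overlapped. Sums of the 5 spermatocyte markers lay between 352 and 495 CPM in WT and between 410 and 430 CPM in MUT. The 5 peritubular myoid cell markers summed to between 7.91 and 9.68 CPM in WT and between 9.15 and 12.8 CPM in MUT.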
